A study of Mus musculus with 12 samples.

Results

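A set of 9 genes of the endothelial tight junction was followed across 4 genotypes of adult mouse brain cortex: Cldn5, Ocln, Tjp1, Marveld2, F11r, Jam2, Esam, Lsr and Cgn. They were taken by name, and all 9 stood among the 21638 genes of the table of counts. Marveld2, the tricellulin gene, was the member with the lowest level that still passed the filter on low counts, and it was the one whose wild-type libraries lay above all 9 mutant libraries by the widest fold. Tjp1, the ZO-1 gene, was higher in the libraries labelled Hdac2 ECKO (endothelial knockout) and F11r was lower there. Both passed in only 2 of 6 fits that left out 1 library, and neither passed with a trend of gene length removed. Marveld2 was lower there and in the libraries labelled Ezh2 ECKO, each time passing in only 2 of 6 such fits. It passed with the length trend removed but not with libraries scaled by their totals alone. Over all genes, the fits that left out 1 library called from 0 to 2220 and from 2 to 2328 in these groups. Of the 8 members that passed the filter, Cldn5 varied most between libraries within the groups labelled Hdac2 ECKO and Ezh2 ECKO, where its coefficient of variation was 52.1% and 62.0%.

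RNA came from endothelial cells sorted by flow cytometry as positive for CD31 and negative for CD41 and CD45, with SMART-Seq v4 PLUS libraries that amplify full-length cDNA from few cells. There were 4 groups of 3 libraries: wild type (WT), Hdac2 ECKO, Ezh2 ECKO and beta-catenin GOF, where ECKO stands for endothelial knockout and GOF for gain of function. The mutant mice carried Hdac2lox/lox, Ezh2lox/lox or Ctnnb1lox/lox alleles, each with Cdh5CreERT2, a tamoxifen-activated Cre driven by the promoter of the endothelial cadherin gene Cdh5. Each was dosed 5 times with tamoxifen (75 mg/kg), and the brain was collected 2 months later. Age was given only as adult, and the labels do not say whether WT mice carried Cre or received tamoxifen, or whether the 3 libraries of a group came from separate mice, so p-values measure the spread between these libraries, which may be technical. The comparison addressed whether loss of either chromatin enzyme, or activation of beta-catenin, alters the program of adult brain endothelium.

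Tight junctions seal the cleft between neighbouring brain endothelial cells and are a main part of the blood-brain barrier. Claudins such as claudin-5 form the sealing strands. The MARVEL proteins occludin and tricellulin join those strands, with tricellulin and the lipolysis-stimulated lipoprotein receptor Lsr placed where 3 cells meet. Junctional adhesion molecules (F11r, also called JAM-A, and Jam2, or JAM-B) and the related Esam are immunoglobulin-type receptors that hold the cells together beside the strands, while ZO-1 (Tjp1) and cingulin (Cgn) are cytoplasmic scaffolds that tie the junction to actin.

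The libraries held 24781070 to 36109975 counts, with 13922 to 17091 genes above 0. Knockout of the targets could not be read from their levels: Hdac2 ranged over 82.2 to 112 CPM in the libraries labelled Hdac2 ECKO and 104 to 162 CPM in WT (edgeR adjusted p = 0.225), where CPM is the count scaled to a common library size. In the libraries labelled Ezh2 ECKO, Ezh2 stood at 5.19 to 11.7 CPM, against 2.69 to 8.88 CPM in WT (edgeR adjusted p = 0.615), with a mean above that of WT. Since no drop was seen, they are called the Ezh2-labelled libraries here. Ctnnb1, the gene targeted in beta-catenin GOF, stood at 478 to 695.5 CPM there and 546 to 809 CPM in WT (edgeR adjusted p = 0.962). It was at 844 to 1324 CPM in Hdac2 ECKO and 753 to 1303 CPM with the Ezh2 label (edgeR adjusted p = 0.0711 and 0.131). The labels do not say which exons are floxed, so counts per gene cannot check the Hdac2, the Ezh2 or the beta-catenin label. All 8 general endothelial markers were present in every library and summed to 3507.5 to 4770 CPM, but they did not move together. Egfl7, a secreted endothelial factor, fell in Hdac2 ECKO (log2 fold change −1.38, edgeR adjusted p = 0.0342) and stood at −1.31 with the Ezh2 label (edgeR adjusted p = 0.0596). The other 7 did not pass in Hdac2 ECKO, with Cdh5 at 0.72, Kdr at 0.68 and Flt1 at 0.66. Red cell transcripts summed to 36116 to 61351 CPM in WT, 400.5 to 21666 with the Hdac2 label, 2518 to 6661 with the Ezh2 label and 509.5 to 35349 in beta-catenin GOF, and pericyte and smooth muscle markers summed to 57.1 to 116, 115 to 306, 50.8 to 68.7 and 104 to 370 CPM in the same order. Astrocyte markers summed to 23.9 to 36.2 CPM in WT. This sum was higher in all 9 mutant libraries, at 50.6 to 76.1, 43.8 to 79.4 and 37.2 to 54.1 CPM in that order. Gja1 carried most of it, with means of 25.9 CPM in WT and 49.9, 50.1 and 42.65 CPM in the mutant groups. By mean, Slc1a2 was also higher in each mutant group, Gfap and Aldoc were lower in each, and Slc1a3 and Aqp4 were mixed. Choroid plexus and ependymal markers summed to 0.696 to 1.60 CPM in WT, 1.44 to 112 with the Hdac2 label, 23.7 to 182 with the Ezh2 label and 0.0264 to 33.8 in beta-catenin GOF. Neuron markers summed to 159.5 to 300 CPM in WT, 60.8 to 109 with the Hdac2 label, 178 to 422 with the Ezh2 label and 116 to 247 in beta-catenin GOF. By group mean, Stmn2 carried most of this sum in every group. Ttr carried most of the choroid plexus and ependymal sum in every mutant group. Of these 5 lists, all 5 red cell and all 8 pericyte and smooth muscle markers averaged 10 counts or more, while 2 of 6 astrocyte, 3 of 5 choroid plexus (Foxj1 was at 0 throughout) and 4 of 5 neuron markers did not. The oligodendrocyte (13.4 to 78.1 CPM) and fibroblast (0.0787 to 4.18 CPM) sums of each mutant group overlapped with WT. The part of such cells in the differences below was not tested.

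Levels of long and short genes differed between libraries in a trend that followed the groups in part, and the members' table lengths run from 1416 bases (Cldn5) to 7811 bases (Tjp1). Across genes, the Spearman correlation of a library's deviation from the 12-library mean with gene length was −0.31, −0.25 and −0.29 in WT and −0.26, −0.22 and −0.19 in beta-catenin GOF. It was 0.40, 0.22 and 0.43 in Hdac2 ECKO. In the Ezh2-labelled libraries it was 0.29 and 0.37 in replicates 1 and 3 but −0.35 in replicate 2, the lowest of the 12. The main results below are also given from a fit in which the length trend of every library was removed.

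Per length, Cldn5 was the most abundant member by a wide margin. In TPM, a scale corrected for gene length and computed here from the counts and the table's lengths, it reached 1838, 2718 and 1720 in the 3 WT libraries, a mean of 2092 ± 545 (SD, n = 3). That placed it at rank 44 of all genes in the table, and it made up 70.7% of the members' summed TPM. Esam followed at 222 ± 69.1 TPM, Jam2 at 176 ± 26.0, F11r at 160 ± 48.9, Ocln at 144 ± 38.2 and Lsr at 104 ± 42.0 (SD, n = 3 each). In this order each of those 5 overlapped with its neighbour in the range of the WT libraries, so their order is not resolved. Tjp1 stood at 47.3 ± 9.01 TPM, its highest library at 57.3 just above the lowest Lsr library at 55.8. Marveld2 was separate below it at 13.4 ± 1.56 TPM.

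**Figure D1:**
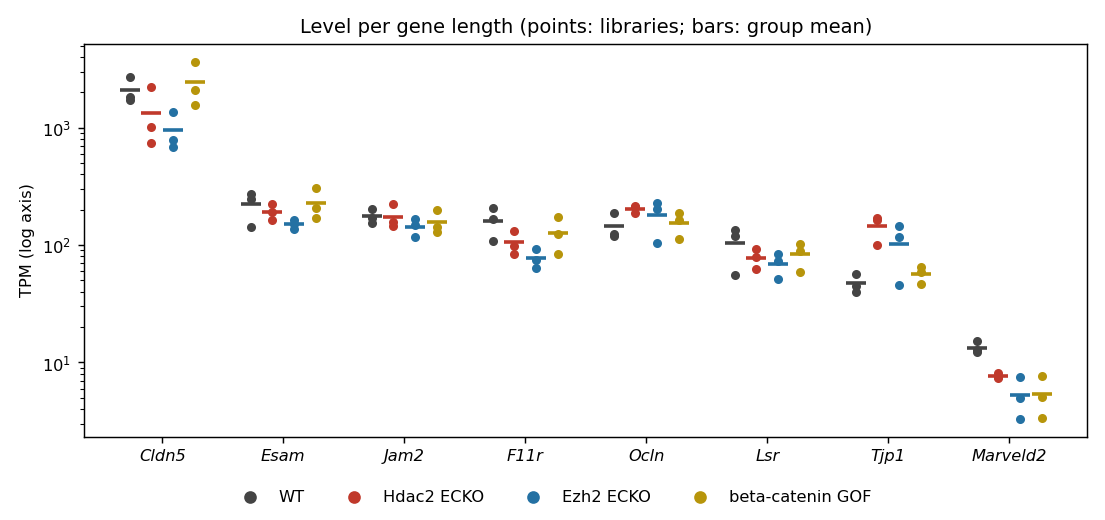
Level per gene length (TPM, log axis) of the 8 tested members in each of the 12 libraries, with a bar at each group's mean. Cldn5 lies above all other members in every group, Marveld2 lies below them, and the 3 WT points of Marveld2 (12.3 to 15.2 TPM) sit above all 9 mutant points (3.32 to 8.16 TPM).

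The make-up of the set differed between groups on this scale. Cldn5 made up 59.5% of the members' summed TPM in Hdac2 ECKO, 56.6% in the Ezh2-labelled libraries and 75.0% in beta-catenin GOF. Tjp1 was the seventh member in WT but the fifth in Hdac2 ECKO, with 145 ± 38.9 TPM against 105 ± 25.2 for F11r and 78.2 ± 15.8 for Lsr. Ocln, the fifth in WT, was the second in Hdac2 ECKO at 204 ± 14.8 TPM and in the Ezh2-labelled libraries at 179 ± 65.3 TPM. These shares and ranks describe group means and were not tested. Within Hdac2 ECKO, Cldn5 stood at 738, 2242.5 and 1018 TPM. TPM does not remove the length trend of a library, and the part of that trend in the shares and ranks was not tested.

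In Hdac2 ECKO against WT, Tjp1 rose and Marveld2 and F11r fell, so 3 of the 8 tested members passed the threshold of an adjusted p of 0.05, against 9.2% of the 12577 genes tested in this comparison (edgeR quasi-likelihood test, Benjamini-Hochberg adjustment over all genes). By direction, 1 member was higher, where 3.82% of all genes were, and 2 were lower, where 5.38% were. Cldn5, Lsr, Esam and Jam2 had lower means without passing, and Ocln had a log2 fold change of 0.12. The median log2 fold change of the 8 was −0.68, beside 0.10 over all genes tested, and 6 of the 8 were below 0, beside 46.0% of all genes. In CPM the ranges of the 2 groups did not overlap for 6 members, against 37.8% of all genes: Tjp1 was higher (19.5% of all genes), and Cldn5, Marveld2, F11r, Jam2 and Esam were lower (18.2%). In TPM they did not overlap for only Tjp1 (higher, as for 38% of all genes) and Marveld2 (lower, as for 3.96%). When each library was left out in turn, the 3 calls held in 2 of 6 fits, those without WT 3 and without Hdac2 ECKO 2, and were lost without WT 1, WT 2, Hdac2 ECKO 1 or Hdac2 ECKO 3 (adjusted p 0.105 to 0.160 for Marveld2, 0.106 to 0.170 for F11r and 0.128 to 0.183 for Tjp1). Each fit that lost them called at most 1 gene of the whole table, so the loss was not particular to these members. Both fits that kept them called more genes than the fit with all libraries, up to 2220 without Hdac2 ECKO 2. With the length trend removed, Marveld2 was the only member called, while 682 of all genes were called, against 1157 without the removal. In bulk samples such as these, fewer cells expressing a gene and less RNA per cell cannot be told apart.

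In the Ezh2-labelled libraries against WT, Marveld2 fell and no other member passed, which is 1 of 8 against 1.03% of all genes tested. Cldn5, F11r, Lsr, Esam and Jam2 had lower means without passing. The median log2 fold change was −0.63 over the 8, beside 0.05 over all genes. This comparison shares its WT libraries with the other 2. In CPM the ranges did not overlap for Marveld2, F11r and Jam2, all lower, as for 10.9% of all genes. In TPM they did not overlap for Cldn5, Marveld2 and F11r, all lower, as for 8.83% of all genes. The call of Marveld2 held without WT 3 and without Ezh2-labelled replicate 2, and was lost in the other 4 fits that left out 1 library (adjusted p 0.0975 to 0.156). Over all genes, these 6 fits called from 2 to 2328.

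In beta-catenin GOF against WT no member passed, and no gene of the table did (0% of genes by edgeR; DESeq2 called 1 member, Marveld2). At an unadjusted p under 0.05 there were 762 genes (6.06%) and 1 member, Marveld2. The other 7 members had log2 fold changes between −0.41 (F11r) and 0.18 (Tjp1) with an unadjusted p above 0.05 for each. The median over the 8 was −0.14, beside 0.01 over all genes tested. In CPM the ranges did not overlap for Marveld2 and Jam2, both lower, as for 5.87% of all genes, and in TPM only for Marveld2, as for 2.54%.

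**Figure D2:**
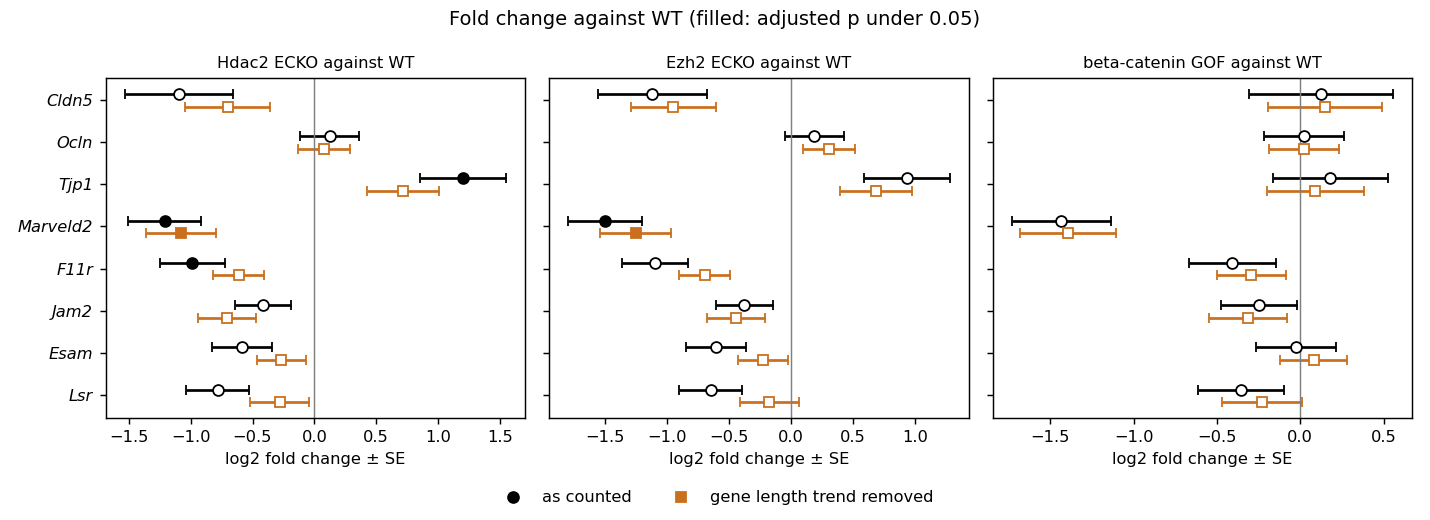
Log2 fold change (± SE) of the 8 tested members in the 3 mutant groups against WT, from the counts (circles) and with each library's gene length trend removed (squares); filled symbols passed an adjusted p of 0.05. Marveld2 lies between −1.50 and −1.08 in all 6 fits shown, while Tjp1 and F11r are filled only for Hdac2 ECKO as counted.

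Claudin-5 is the dominant claudin of brain endothelium and limits passage of small molecules. Cldn5 (ENSMUSG00000041378.2) lies on chromosome 16, 18776847 to 18778262 on the plus strand of GRCm38, and has a single exon in the annotation. Because its level is the highest of the set, the promoter window of RefSeq (GRCm38.p6, 250 bases before to 50 after the gene start) is shown 5′ to 3′, at chr16:18776597-18776896 on the plus strand. It is all in lower case since none of the 5 motif sets given further on matched in it.

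Cldn5 promoter: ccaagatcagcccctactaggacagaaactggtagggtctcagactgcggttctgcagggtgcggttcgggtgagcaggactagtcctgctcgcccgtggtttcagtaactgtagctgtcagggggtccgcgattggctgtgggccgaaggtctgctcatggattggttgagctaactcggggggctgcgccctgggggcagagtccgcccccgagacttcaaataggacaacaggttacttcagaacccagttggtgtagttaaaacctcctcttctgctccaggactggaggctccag

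Cldn5 was at 1172, 1892 and 1407 CPM in WT. Hdac2 ECKO gave 435, 1111 and 545 CPM, the Ezh2-labelled libraries gave 496, 1174 and 389 CPM, and beta-catenin GOF gave 1656.5, 2194 and 1027 CPM. In Hdac2 ECKO and in the Ezh2-labelled libraries, replicates 1 and 3 were low and replicate 2 was near the lowest WT library, just below it for Hdac2 ECKO and just above it for the other group. The log2 fold change was −1.10 (SE 0.44) in Hdac2 ECKO and −1.12 (SE 0.44) in the Ezh2-labelled libraries, neither of which passed (edgeR adjusted p = 0.10 and 0.138). Without Hdac2 ECKO 2 alone the log2 fold change in that group was −1.66 (adjusted p = 0.0267), and without Ezh2-labelled replicate 2 alone it was −1.75 (adjusted p = 0.0157) there. The other 5 fits that left out 1 library did not call Cldn5 in either group. They went down in size to −0.85 without Hdac2 ECKO 1 (adjusted p 0.115 to 0.313 over the 5) and to −0.86 without Ezh2-labelled replicate 3 (adjusted p 0.134 to 0.359). Without replicate 2 of both groups, an alternative chosen after seeing the data, the values were −1.61 (adjusted p = 0.00439) and −1.75 (adjusted p = 0.00462). With the length trend removed from all 12 libraries it was −0.70 (adjusted p = 0.212) and −0.95 (adjusted p = 0.120). In beta-catenin GOF the log2 fold change was 0.13 (SE 0.43, edgeR adjusted p = 0.985).

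Occludin and tricellulin are 4-pass membrane proteins of the MARVEL family, and tricellulin, encoded by Marveld2, gathers at contacts of 3 cells. Their genes lie on the same strand of chromosome 13, Ocln at 100496507 to 100552718 (ENSMUSG00000021638.12) and Marveld2 at 100595957 to 100616971 (ENSMUSG00000021636.15), both minus, GRCm38. Marveld2 overlaps a small nuclear RNA gene, Gm24261, on the opposite strand. The first of its 2 RefSeq promoter windows (chr13:100616922-100617221, minus strand, GRCm38.p6) is shown since Marveld2 was called in Hdac2 ECKO and in the Ezh2-labelled libraries. Capitals mark CAGGTG, the E-box letters bound by factors of the Snail type, and CCGGAA, an ETS core, here read as TTCCGG on the strand shown; they begin 44 and 30 bases after the gene start.

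Marveld2 promoter: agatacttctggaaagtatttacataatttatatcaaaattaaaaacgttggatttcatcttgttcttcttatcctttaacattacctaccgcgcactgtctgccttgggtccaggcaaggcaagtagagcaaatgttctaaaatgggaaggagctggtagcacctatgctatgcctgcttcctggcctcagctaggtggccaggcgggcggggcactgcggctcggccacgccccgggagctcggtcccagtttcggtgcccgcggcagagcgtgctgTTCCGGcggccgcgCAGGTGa

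Marveld2 was at 19.5, 25.3 and 23.9 CPM in WT. The Hdac2 ECKO libraries held 10.6, 9.66 and 9.39 CPM, the Ezh2-labelled ones 7.39, 6.81 and 10.1 CPM, and beta-catenin GOF 6.38, 11.0 and 8.04 CPM. All 9 mutant libraries lay below the lowest WT library, which 1.91% of the genes tested showed in this direction. These values rest on 561 to 798 counts per WT library and 173 to 416 counts per mutant library. The log2 fold change was −1.21 (SE 0.29, edgeR adjusted p = 0.0346) in Hdac2 ECKO, a 2.31-fold difference. It was −1.50 (SE 0.30, edgeR adjusted p = 0.0449) in the Ezh2-labelled libraries, a 2.83-fold difference. In beta-catenin GOF it was −1.43 (SE 0.30), with an unadjusted p of 0.0002 and an edgeR adjusted p of 0.350; the adjusted p was 0.00382 by DESeq2. With the length trend removed the 3 values were −1.08 (adjusted p = 0.0438), −1.25 (adjusted p = 0.0494) and −1.39 (adjusted p = 0.340). With libraries scaled by their totals alone, the first 2 did not pass (−0.96, adjusted p = 0.0635, and −1.45, adjusted p = 0.0532). The 3 comparisons share the same WT libraries.

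Ocln was at 358, 259.5 and 292 CPM in WT and at 378, 277 and 336 CPM in Hdac2 ECKO. The Ezh2-labelled libraries gave 381.5, 268 and 385 CPM, and beta-catenin GOF gave 266, 334 and 324 CPM. All 4 groups overlapped. The log2 fold changes against WT were 0.12, 0.19 and 0.02 (SE 0.24 each, edgeR adjusted p = 0.746, 0.656 and 0.998), and no setting tried called Ocln.

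**Figure D3:**
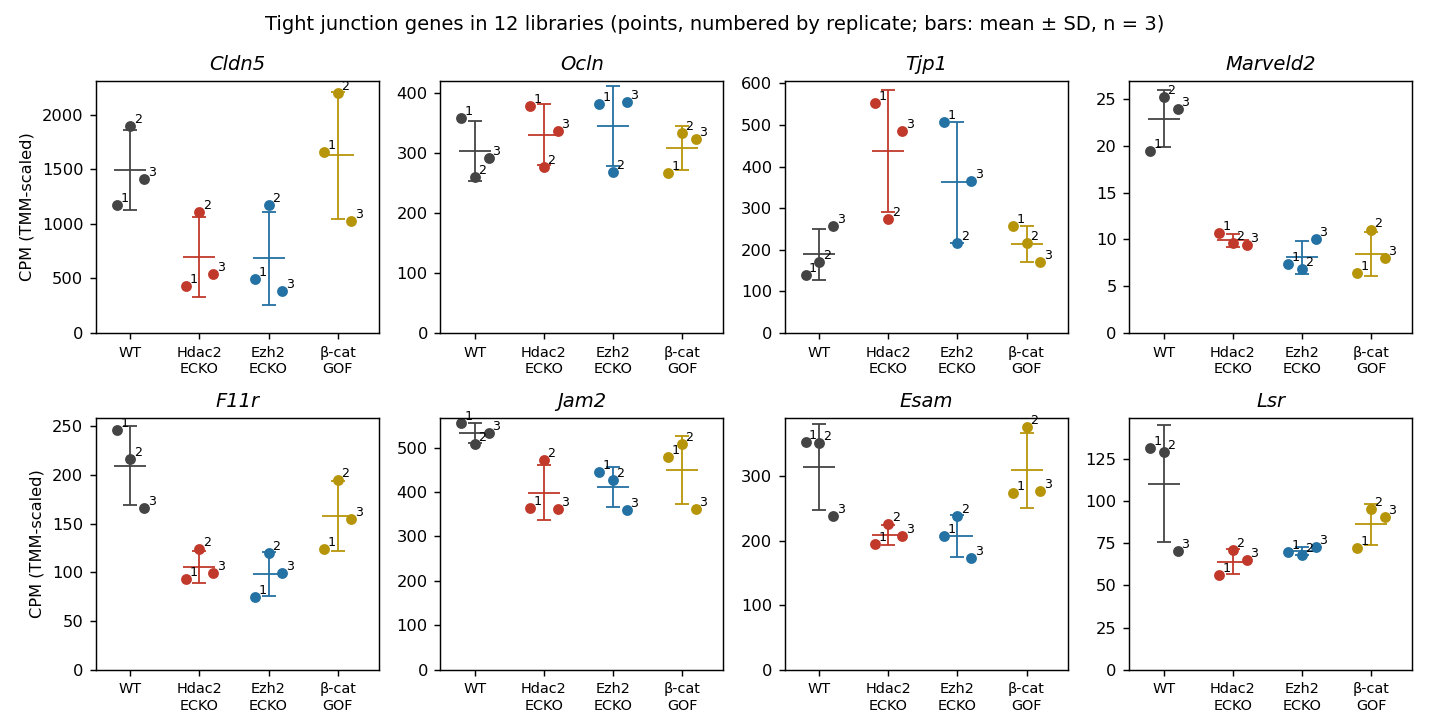
CPM (TMM-scaled) of the 8 tested members in the 12 libraries, points numbered by replicate, with mean ± SD bars (n = 3). Marveld2 is above 19 CPM in each WT library and at 11.0 CPM or less in the other 9, and replicate 2 of the groups labelled Hdac2 ECKO and Ezh2 ECKO stands nearest to WT for Cldn5 and Tjp1.

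Of the 3 immunoglobulin-type adhesion receptors, F11r was the one that passed the test. JAM-A, its product, binds ZO-1 and sits at the junction from early in its assembly. F11r (ENSMUSG00000038235.4) lies on chromosome 1, 171437535 to 171464603, plus strand. Its RefSeq promoter window at chr1:171437311-171437610 (plus strand, GRCm38.p6) is shown because F11r and Marveld2 were the members called lower; capitals mark the single E-box, CAGGTG read on the opposite strand.

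F11r promoter: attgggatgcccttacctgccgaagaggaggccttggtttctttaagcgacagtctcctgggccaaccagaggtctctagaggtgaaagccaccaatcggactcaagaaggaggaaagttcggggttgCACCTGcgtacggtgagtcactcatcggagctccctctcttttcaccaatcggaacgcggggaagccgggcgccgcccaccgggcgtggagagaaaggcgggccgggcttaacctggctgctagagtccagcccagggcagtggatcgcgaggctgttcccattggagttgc

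F11r was at 246, 217 and 166 CPM in WT and at 93.0, 124 and 99.8 CPM in Hdac2 ECKO. The Ezh2-labelled libraries gave 74.6, 120 and 99.6 CPM, and beta-catenin GOF gave 124, 195 and 155 CPM. All 6 Hdac2 ECKO and Ezh2-labelled libraries were below the lowest WT library, while beta-catenin GOF overlapped with WT. The log2 fold change was −0.99 (SE 0.26, edgeR adjusted p = 0.0392) in Hdac2 ECKO, a 1.99-fold difference. It was −1.10 (SE 0.26) in the Ezh2-labelled libraries, just short of the threshold (edgeR adjusted p = 0.0555). Leaving out WT 3 (−1.24, adjusted p = 0.0220) or Ezh2-labelled replicate 2 (−1.27, adjusted p = 0.0125) called the latter, and the other 4 such fits did not (adjusted p 0.140 to 0.217). With the length trend removed neither passed, at −0.61 (adjusted p = 0.0824) and −0.70 (adjusted p = 0.0717). In beta-catenin GOF the value was −0.41 (SE 0.26, edgeR adjusted p = 0.893).

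Jam2, whose product JAM-B is a receptor enriched in endothelium, lies on chromosome 16, 84774123 to 84825928, plus strand, and is a long transcript of 6045 bases. It was at 556, 509 and 534 CPM in WT, the tightest WT group of the set, with a coefficient of variation of 4.40%. Hdac2 ECKO gave 364, 471 and 361 CPM, the Ezh2-labelled libraries gave 444, 427.5 and 360 CPM, and beta-catenin GOF gave 478, 507 and 362 CPM. Like Marveld2, it was lower in all 9 mutant libraries than in any WT library, though beta-catenin GOF replicate 2, at 506.9 CPM, was close to WT replicate 2, at 508.7 CPM. No comparison passed: the log2 fold changes were −0.42, −0.38 and −0.25 (SE 0.23 each, edgeR adjusted p = 0.209, 0.315 and 0.931). In TPM the groups overlapped, with 176 ± 26.0 TPM in WT and 175 ± 41.8 TPM in Hdac2 ECKO. The length of a gene is the same in every library, so TPM and CPM differ here by the scaling of each library. Of all genes, 38% were higher and 3.96% lower in Hdac2 ECKO by TPM ranges, against 19.5% and 18.2% by CPM ranges. Removal of the length trend gave a log2 fold change of −0.71 in Hdac2 ECKO (adjusted p = 0.0783). With libraries scaled by their totals alone it was −0.16 (adjusted p = 0.641).

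Esam, an adhesion receptor shared by endothelium and platelets, lies on chromosome 9, 37528078 to 37538319, plus strand. It was at 353, 351 and 238 CPM in WT and at 194.5, 225 and 208 CPM in Hdac2 ECKO. The Ezh2-labelled libraries gave 207.5, 238.5 and 173.5 CPM, and beta-catenin GOF gave 274, 376 and 277 CPM. Hdac2 ECKO was below every WT library, and the Ezh2-labelled libraries touched the lowest WT library. The log2 fold changes were −0.59, −0.60 and −0.02 (SE 0.24 each, edgeR adjusted p = 0.109, 0.144 and 0.998), and with the length trend removed they were −0.27, −0.22 and 0.08. The 4 platelet markers checked, none at 0 in all libraries, summed to 14.8 to 38.6 CPM in WT, 5.54 to 46.6 in Hdac2 ECKO, 10.9 to 50.3 in the Ezh2-labelled libraries and 18.4 to 43.0 in beta-catenin GOF, and their part in Esam was not tested.

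Lsr, which recruits tricellulin to tricellular contacts, lies on chromosome 7, 30957770 to 30973464, minus strand. It overlaps 2 antisense genes, Gm17077 and Gm4673, and without knowledge of strand in the counting their reads cannot be told apart. Lsr was at 131, 129 and 70.0 CPM in WT and at 56.0, 71.0 and 64.9 CPM in Hdac2 ECKO. The Ezh2-labelled libraries gave 69.9, 68.1 and 72.8 CPM, and beta-catenin GOF gave 72.2, 95.2 and 90.8 CPM. WT replicate 3 stood with the mutant libraries, and every mutant library was below the other 2 WT libraries. The log2 fold changes were −0.78, −0.65 and −0.36 (SE 0.26 each), and none passed (edgeR adjusted p = 0.0606, 0.142 and 0.911). Without WT 3 the value in Hdac2 ECKO was −1.03 (adjusted p = 0.0221) and that in the Ezh2-labelled libraries was −0.89 (adjusted p = 0.0327). Without Hdac2 ECKO 2 the former was −0.92 (adjusted p = 0.0479). The other fits that left out 1 library did not call Lsr, with values down to −0.64 (adjusted p 0.176 to 0.213) in Hdac2 ECKO and −0.50 (adjusted p 0.120 to 0.406) in the Ezh2-labelled libraries. Removal of the length trend gave −0.28 (adjusted p = 0.496) and −0.17 (adjusted p = 0.707).

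Tjp1 moved the opposite way. ZO-1, its product, is the central scaffold that binds claudins, occludin and JAM-A. Tjp1 (ENSMUSG00000030516.14) lies on chromosome 7, 65296165 to 65527781, minus strand, and is the longest member; it overlaps Gm44792, Gm44794 and Gm44795. Its RefSeq promoter window (chr7:65371195-65371494, minus strand, GRCm38.p6) lies inside that span and so marks a start within the gene, and it is shown as the contrast to the 2 windows of the members called lower. It too held none of the motifs.

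Tjp1 promoter: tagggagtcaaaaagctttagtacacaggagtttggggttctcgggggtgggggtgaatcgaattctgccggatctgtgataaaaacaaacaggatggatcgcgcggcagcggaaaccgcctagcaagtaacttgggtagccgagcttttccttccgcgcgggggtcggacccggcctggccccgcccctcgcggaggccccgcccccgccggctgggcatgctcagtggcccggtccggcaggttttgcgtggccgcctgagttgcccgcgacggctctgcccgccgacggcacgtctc

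Tjp1 was at 140, 171 and 258 CPM in WT and at 553, 273.5 and 485 CPM in Hdac2 ECKO. The Ezh2-labelled libraries gave 506, 216 and 365 CPM, and beta-catenin GOF gave 257, 217.5 and 170.5 CPM. Every Hdac2 ECKO library was above the highest WT library, replicate 2 by little, and replicate 2 of the Ezh2-labelled libraries lay within WT. The log2 fold change was 1.20 (SE 0.35, edgeR adjusted p = 0.0454) in Hdac2 ECKO, a 2.30-fold difference. It was 0.93 (SE 0.35, edgeR adjusted p = 0.124) in the Ezh2-labelled libraries and 0.18 (SE 0.34, edgeR adjusted p = 0.965) in beta-catenin GOF. With the length trend removed, the value in Hdac2 ECKO was 0.72 (adjusted p = 0.138), and with median-ratio scaling it was 1.15 (adjusted p = 0.0503). Without Ezh2-labelled replicate 2 alone it was 1.20 (adjusted p = 0.0241) in that group, and without replicate 1 it was 0.60 (adjusted p = 0.409). The 5 such fits other than the first did not call it (adjusted p 0.0570 to 0.409). Without replicate 2 of both groups it was 1.45 (adjusted p = 0.00296) in Hdac2 ECKO and 1.20 (adjusted p = 0.0101) in the Ezh2-labelled libraries.

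Cingulin, a scaffold best known from epithelia, was at or near the limit of detection. Cgn (chromosome 3, 94760069 to 94786515, minus strand) had 3, 0 and 0 counts in the WT libraries. Hdac2 ECKO had 2, 4 and 0 counts, the Ezh2-labelled libraries had 0, 7 and 0, and beta-catenin GOF had 2, 2 and 0. A count of 0 allows up to 3 counts, which is 0.0831 to 0.121 CPM depending on the library, and no comparison was made.

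The balance of scaffold to claudin shows how the libraries sort. The ratio of Tjp1 to Cldn5 CPM, which is not corrected for length, was 0.12, 0.091 and 0.18 in WT and 0.16, 0.099 and 0.17 in beta-catenin GOF. It was 1.27, 0.25 and 0.89 in Hdac2 ECKO and 1.02, 0.18 and 0.94 in the Ezh2-labelled libraries. Replicates 1 and 3 of both of these groups had ratios near 1, and replicate 2 of both lay nearer to WT. Hdac2 ECKO 2 had the weakest length trend of its group (0.22) and replicate 2 of the Ezh2-labelled libraries had a trend of the opposite sign (−0.35). Those 4 libraries with a high ratio also had the 4 strongest positive length trends; whether the trend accounts for the ratio was not tested beyond the fits with the trend removed.

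**Figure D4:**
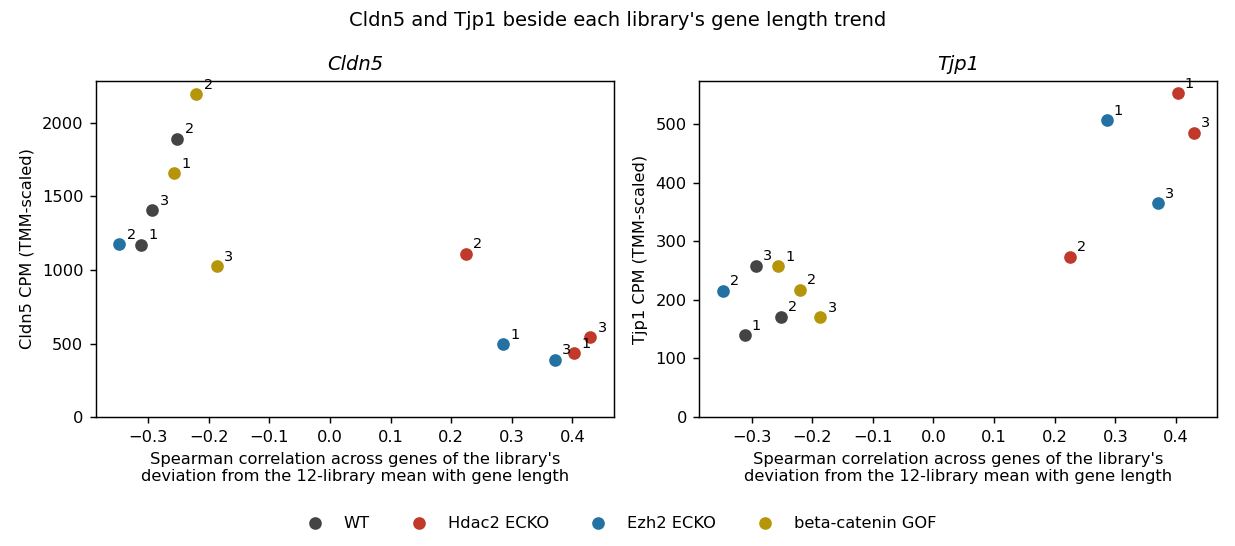
CPM of Cldn5 (left) and Tjp1 (right) against each library's Spearman correlation with gene length, 1 point per library numbered by replicate. The 4 libraries with correlations of 0.29 to 0.43, replicates 1 and 3 of the groups labelled Hdac2 ECKO and Ezh2 ECKO, have 389 to 545 CPM of Cldn5 and 365 to 553 CPM of Tjp1, and no other library is as low in Cldn5 or as high in Tjp1.

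Between the mutant groups no member passed. Hdac2 ECKO against the Ezh2-labelled libraries gave log2 fold changes between −0.13 (Lsr) and 0.29 (Marveld2), with 0 of 8 members called against 0.0239% of all genes. At an unadjusted p under 0.05 there were 0 members, against 8.19% of all genes, and DESeq2 also called 0. In beta-catenin GOF against Hdac2 ECKO 0 of 8 were called, against 0.0716% of all genes; 4 members had an unadjusted p under 0.05, as 21.1% of all genes did, namely Cldn5 at 1.22 (SE 0.44, edgeR adjusted p = 0.169), Tjp1 at −1.02 (SE 0.35, adjusted p = 0.169), F11r at 0.58 and Esam at 0.56. In beta-catenin GOF against the Ezh2-labelled libraries 0 of 8 were called, against 0.0636% of all genes, and Cldn5, Tjp1, F11r and Esam had an unadjusted p under 0.05 (13.2% of all genes), with Cldn5 at 1.24 (SE 0.44, edgeR adjusted p = 0.305). Without Hdac2 ECKO 2, Cldn5 was called against Hdac2 ECKO at 1.77 (adjusted p = 0.0477), and without Ezh2-labelled replicate 2 it was called against that group at 1.88 (adjusted p = 0.0337). The other 5 fits that left out 1 library did not call it, with values down to 0.945 (adjusted p 0.260 to 0.543) and 0.97 (adjusted p 0.390 to 0.650), both reached without beta-catenin GOF 2. Without replicate 2 of both, the difference was 1.73 (adjusted p = 0.00491) against Hdac2 ECKO and 1.88 (adjusted p = 0.00597) against the Ezh2-labelled libraries. Marveld2 gave log2 differences of 0.29, −0.22 and 0.07 (SE 0.29 each) in these 3 comparisons.

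A wider list of tight junction genes held 42 others: further claudins, MARVEL and immunoglobulin-type proteins, scaffolds, polarity proteins and associated factors. Of these, 41 were in the table and 31 were tested. In Hdac2 ECKO against WT, 3 of the 31 were called higher, where 3.82% of all genes were, and 1 lower, where 5.38% were. The 3 were Afdn (log2 fold change 1.17, adjusted p = 0.0326), the actin-binding scaffold afadin, Cgnl1 (0.88, adjusted p = 0.0392), the paracingulin gene, and Ildr2 (1.16, adjusted p = 0.0498), an angulin relative of Lsr. The gene called lower was Igsf5 (−1.04, adjusted p = 0.0384), which encodes JAM4. In the Ezh2-labelled libraries, 2 were called lower and 0 higher: Igsf5 (−1.20, adjusted p = 0.0479) and Rab13 (−1.39, adjusted p = 0.0449), a small GTPase of junction assembly. Of all genes, 0.684% were called lower there and 0.342% higher. In beta-catenin GOF 0 were called by edgeR, as were 0% of all genes, and 2 of 31 had an unadjusted p under 0.05, beside 6.06% of all genes. With the length trend removed none of these genes passed, with adjusted p from 0.0548 (Rab13) to 0.192 (Cgnl1).

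The wider list had positive medians where the 8 tested members had negative ones. Its median log2 fold change was 0.71 in Hdac2 ECKO, with 24 of 31 above 0, where 6787 of all 12577 genes were. It was 0.42 in the Ezh2-labelled libraries, with 20 of 31 above 0, where 6615 of all genes were. The lists differ in length, with a median of 7844 bases for the 31 genes, 3124.5 bases for the 8 members and 4429 bases for all genes tested. Tjp1, a member, was among the long genes that were higher, and Cldn5, Lsr, F11r and Esam were among the short genes that were lower. Marveld2 at 3382 bases had the lowest fold change of the members in all 3 comparisons with all 12 libraries, and Jam2, at 6045 bases, had a negative fold change among long genes that were mostly positive.

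**Figure D5:**
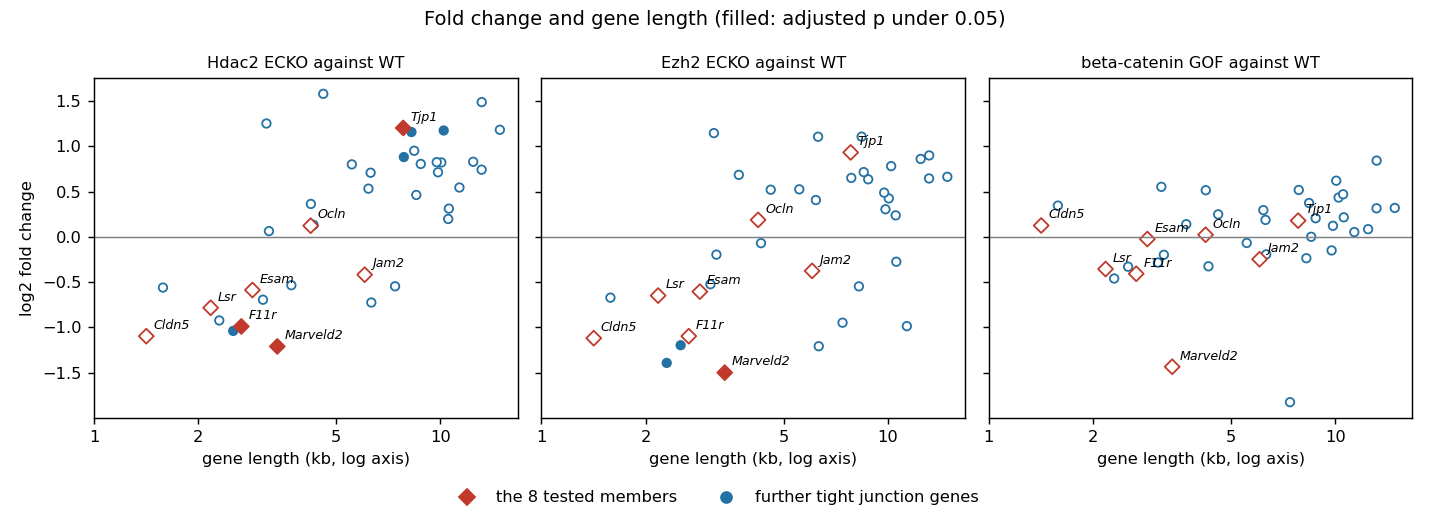
Log2 fold change against WT plotted over gene length (kilobases, log axis) for the 8 members (diamonds) and the 31 further tight junction genes (circles); filled symbols passed an adjusted p of 0.05. In Hdac2 ECKO the shortest member, Cldn5 (1416 bases), is at −1.10 and the longest, Tjp1 (7811 bases), at 1.20, and Marveld2 is the lowest member in all 3 panels.

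Among the claudins, Cldn5 was nearly alone. Of 32 claudin genes in the table, 4 had at least 10 counts in every library: Cldn5, Cldn12, Cldn34c1 and Cldn34c2. Their WT means were 2092, 2.86, 12.7 and 29.2 TPM. Another 5 claudins were at 0 in every library. Cldn1 and Cldn3, which have been described at the blood-brain barrier, and Cldn11, a claudin of myelin, did not pass the filter, with at most 4, 10 and 26 counts in any library.

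The members did not vary as 1 block. Over the 12 libraries, F11r and Esam had a Pearson correlation of log2 CPM of 0.88, Lsr and F11r 0.85, and Cldn5 and Esam 0.85, while Tjp1 and F11r had −0.89, Tjp1 and Cldn5 −0.78, and Ocln and Cldn5 −0.73. After subtraction of group means these were 0.73, 0.68, 0.60, −0.84, −0.53 and −0.80. The highest value of Marveld2 with any member was 0.68 (F11r), which was 0.23 for the same pair within groups, and that of Ocln or Tjp1 was 0.49, with each other. These values are descriptions over 12 libraries that share groups and length trends. Of all genes tested, those most like Marveld2 were Cd53 (0.93), E130311K13Rik (0.91) and Pde8b (0.88), and those most like Cldn5 were Inka1 (0.98), Ypel3 (0.95) and Fam89b (0.95). Cd53, a leukocyte tetraspanin gene, had 60, 76 and 80 counts in the WT libraries and 0 in the 9 mutant libraries. The whole list of 8 microglia and leukocyte markers summed to 4.34 to 6.93 CPM in WT, 2.22 to 3.79 in Hdac2 ECKO, 3.89 to 8.76 in the Ezh2-labelled libraries and 2.39 to 3.32 in beta-catenin GOF, with 5 of the 8, among them Cx3cr1, P2ry12 and Tmem119, under a mean count of 10. The cells had been sorted as CD45-negative, and how fully this excluded leukocytes is not known. The part of leukocytes in the Marveld2 difference was not tested.

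Promoter windows were available for 7 of the 9 members by symbol, with 2 windows each for Ocln and Marveld2. In all, 5 sets of letters were searched on both strands: CAGGTG (Snail type E-box), CCGGAA (ETS), CTTTGAT or CTTTGAA (TCF/LEF), ACAATG or ACAAAG (SOX) and GTAAACA (FOXO). CAGGTG was found in F11r, Lsr, Ocln and Marveld2, which is 4 of the 7 members, and in 20.2% of the 32851 windows of all genes. Members are counted here by gene, while the shares over all genes are counted by window (27025 symbols in all), so the units differ. Lsr held 4 copies. CCGGAA was found in Lsr, Ocln and Marveld2, and in 14.9% of all windows. The TCF/LEF, SOX and FOXO letters were in none of the members' windows, and in 8.65%, 28.6% and 3.65% of all windows. The 2 members called lower in Hdac2 ECKO, F11r and Marveld2, held CAGGTG in the windows printed above, and Tjp1, called higher, did not. Lsr, at −0.78 without passing, and Ocln, at 0.12, held it too, and Cldn5, at −1.10 without passing, did not. A link of these letters to the direction of change was not tested. A match is only these letters in this window.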

How the data were processed

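The table was deposited as normalized values, but it holds whole-number counts whose totals differ between libraries and whose median-ratio size factors, recomputed, run from 0.841 to 1.30. Even numbers made up 79.5% to 84.0% of low values per library (10 to 50) but 59.4% to 67.1% of high ones, which a rescaling would have removed, so the deposited values were treated as raw counts. FastQC, cutadapt, STAR, featureCounts, DESeq2 and mm10 are named in the submitters' processing notes, without versions; the annotation, strand setting and filters are not given in the sources used here. Gene start or end matched GENCODE M21 on GRCm38 for 98.9% of genes, and gene length is the table's own, in bases.

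Counts were tested with edgeR 4.0.16 (R 4.3.3): quasi-likelihood F test, TMM scaling, a single model of the 4 groups over 12 libraries without a block, a filter that kept 12577 genes averaging 10 counts or more, and Benjamini-Hochberg adjustment over all of them in each of 6 comparisons. The plan of a limma test on log2 values was replaced for this reason and kept as an alternative (limma 3.58.1, log2 of CPM plus 1 or 0.1), beside DESeq2 1.42.0. The standard error was derived from the F statistic. The length trend was removed by a loess curve (span 0.4) of each library's deviation over log length, used as an offset. The script was checked on simulated counts. The reads carry no molecular identifiers, so floors (3 counts) cover counting error only; given the excess of even values, 1 fragment may often stand for 2 counts, and a floor in fragments would then be higher.

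The 9 members, the further list and the marker lists were chosen with earlier results of these data known. The members were all named, with further genes named where called, and the 3 genes most alike were named for Cldn5 and Marveld2. Replicate numbers from the titles were checked as pairs by correlating deviations from group means. Only for Hdac2 ECKO against the Ezh2-labelled libraries did all 3 pairs exceed 0.1 (0.19, 0.43 and 0.13); a fit with the block called 0 members there, as without it. Alternatives were other scalings, filters and tools, quality weights per sample, fits restricted to the groups compared, a replicate block, removal of length and GC trends, and each library left out; removal of GC, leaving out replicate 2 of Hdac2 ECKO and of the Ezh2-labelled libraries, and TPM ranges were added after seeing the data. Promoter sequences are from RefSeq (GRCm38.p6), 32851 windows; Esam and Jam2 were not matched.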

Additional observations from a re-analysis of the deposited data

How the results depend on the processing

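The number of members called moved with the setting. Hdac2 ECKO against WT (3 of 8) gave 1 with library totals alone, with the length trend removed and with the length and GC trends removed, 5 with DESeq2 and without both replicates 2, and 7 with sample quality weights, and 0 to 5 when 1 library was left out. The count over all genes moved too: quality weights called 5374 there, against 1157 as reported and 682 with the length trend removed. DESeq2 and the fit without both replicates 2 also called more genes than the fit as reported. Library totals alone called more genes but fewer members. In the Ezh2-labelled libraries, quality weights called 3743 genes, against 129 as reported. The Ezh2-labelled libraries against WT (1) gave 0 with totals alone and in the fit of only the 2 groups, 2 with a mean count of at least 50, DESeq2, either limma pseudocount, and the replicate block with the length trend removed, 3 with the replicate block (Cldn5 and F11r added), 4 without the filter and without both replicates 2, 6 with quality weights, and 0 to 4 when 1 library was left out. Beta-catenin GOF against WT (0) gave 1 without the filter, with DESeq2 and with quality weights, in each case Marveld2. Beta-catenin GOF against Hdac2 ECKO (0) gave 2 without the filter and without both replicates 2, 4 with quality weights, and 0 to 1 when 1 library was left out; against the Ezh2-labelled libraries (0) it gave 1, 3, 4 and 0 to 1. Hdac2 ECKO against the Ezh2-labelled libraries gave 0 members in every fit. Over all genes, the settings with all groups complete or without both replicates 2 called 1 to 3339, 10 to 1566 and 0 to 199 in these 3 comparisons. The replicate block left Hdac2 ECKO against WT at 4 members, with Cldn5 added; same-numbered libraries did not pair there (correlations of −0.19, 0.11 and 0.098).

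Reversals touched only log2 differences from −0.65 to 0.43 in the fit as reported, and none that passed. Against WT, Lsr turned to 0.013 in the Ezh2-labelled libraries with length and GC removed, and Esam in beta-catenin GOF turned to 0.031 with totals, 0.081 with length removed, 0.081 with block and length, and 0.034 with length and GC. Hdac2 ECKO against the Ezh2-labelled libraries turned for Cldn5 (−0.021 with median-ratio scaling and DESeq2), Esam (−0.024 with both, −0.042 with length, −0.030 with block and length, −0.068 with length and GC), and, with totals, Ocln (0.13), Jam2 (0.20) and Lsr (0.095). Beta-catenin GOF against Hdac2 ECKO turned for Ocln (0.095) and Lsr (−0.14) with length and GC and for Jam2 (−0.031) with totals. Against the Ezh2-labelled libraries it turned for Marveld2 (−0.14 with length, −0.15 with block and length, −0.16 with length and GC, −0.044 without both replicates 2) and Lsr (−0.057, −0.056 and −0.28 in the first 3 of these). Leaving out 1 library, the ranges that crossed 0 were −0.0027 to 0.26 for Ocln in Hdac2 ECKO against WT; −0.15 to 0.37 for Cldn5, −0.076 to 0.16 for Ocln and −0.19 to 0.070 for Esam in beta-catenin GOF against WT; −0.52 to 0.65 for Cldn5, −0.22 to 0.011 for Ocln, −0.058 to 0.28 for F11r, −0.22 to 0.029 for Jam2 and −0.10 to 0.13 for Esam in Hdac2 ECKO against the Ezh2-labelled libraries; −0.17 to 0.018 for Ocln in beta-catenin GOF against Hdac2 ECKO; and −0.17 to 0.26 for Marveld2 against the Ezh2-labelled libraries.

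Over all genes, calls in Hdac2 ECKO against WT ranged from 682 to 5374 across settings and from 0 to 2220 when 1 library was left out; in the Ezh2-labelled libraries from 17 to 3743 and from 2 to 2328; in beta-catenin GOF from 0 to 157 and from 0 to 4. The share of calls that were higher in Hdac2 ECKO was 41.5%, 80.4% with totals alone, which moved the median of all genes from 0.10 to 0.34, and 22.9% with the length trend removed. In the Ezh2-labelled libraries it was 33.3%, 56.7% and 54.1%. The causes of these shifts were not tested.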

Other observations

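Among the further tight junction genes, the following were chosen after their values were seen, and none passed. Cxadr, which encodes an adhesion receptor of the junction, averaged 5.11 ± 0.613 CPM over the WT libraries, against 1.44 ± 0.0969 CPM for beta-catenin GOF (SD, n = 3 each), with ranges that did not overlap. Its log2 fold change was −1.83 (SE 0.49, edgeR adjusted p = 0.538), lower than that of Marveld2 in the same comparison. In the Ezh2-labelled libraries the angiomotin genes Amot and Amotl2 had log2 fold changes of 1.11 each (SE 0.34 and 0.28, edgeR adjusted p = 0.0856 and 0.0572), and those with the length trend removed were 0.84 and 0.98. Ybx3, which encodes the ZO-1-binding factor ZONAB and was the second of the further genes in mean TPM, was at −0.69 in Hdac2 ECKO and −0.52 in the Ezh2-labelled libraries (edgeR adjusted p = 0.0782 and 0.210), opposite in sign to Tjp1. With the length trend removed, Ybx3 was at −0.44 and −0.18 (edgeR adjusted p = 0.223 and 0.656). A link between Ybx3 and Tjp1 was not tested.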
